A study of Mus musculus with 78 samples.

Results

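The genes described here encode subunits of the mitochondrial respiratory chain and of ATP synthase. They were taken by symbol: every probe whose gene name started with Nduf, Uqcr, Cyc1 or Atp5, with Cox4 to Cox8, or was Sdha, Sdhb, Sdhc or Sdhd. This gave 88 genes with 132 probes, among 19406 named genes and 46643 probes of the array. Of these, 109 probes of 81 genes were bright enough to be tested in at least 1 brain region, and 23 probes were not. Atp5md, Cox7b2, Cox8c, Ndufaf6, Ndufs1, Sdha and Uqcrfs1 had no tested probe.

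Their transcripts were read on bead arrays (Illumina MouseWG-6 v1.1) from male CD-1 mice aged 10 weeks. The mice belonged to generation 25 of selective breeding for anxiety-related behavior, which was high in the HAB line, normal in the NAB line and low in the LAB line. RNA came from 5 laser-microdissected regions: the cingulate cortex (Cg), the central amygdala (CeA), the hypothalamic paraventricular nucleus (PVN), the basolateral amygdala (BLA) and the dentate gyrus (DG). The 75 arrays with values came from 21 numbered mice. The labels number 6 HAB, 7 NAB and 8 LAB mice, whereas the methods describe 6 of each line, so the NAB and LAB numbers exceed it. Every result that treats a mouse as a block rests on the labels. The Cg had 5 HAB, 6 NAB and 6 LAB arrays, the CeA 6, 6 and 5 in that order, the PVN 6, 5 and 5, the BLA 5, 6 and 5, and the DG 3 of each line. No group carried a transgene or a treatment, and each region was hybridised as 1 batch, so region and batch cannot be told apart.

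Electrons from NADH enter the respiratory chain at complex I and those from succinate at complex II. Complexes III and IV pass them on to oxygen while protons are pumped across the inner mitochondrial membrane, and ATP synthase uses the resulting gradient to make ATP. Neurons draw most of their ATP from this process. Most subunits are encoded in the nucleus, and several complex IV subunits exist in a widely expressed form and in a form typical of heart and skeletal muscle, lung or testis.

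The members fell into 34 genes of complex I, 7 complex I assembly factors, 4 of complex II, 9 of complex III, 17 of complex IV and 17 of ATP synthase. Their levels are given as the deposited normalised intensity, whose scale has no unit, and a higher value of 1 probe than of another does not show more transcript. Of the 109 tested probes, 84 lay above the background of every array, which ran from 6.99 to 10.6, and 98 were tested in all 5 regions. The naming rule took for each complex the gene whose probe read highest. For ATP synthase this was Atp5b, the catalytic beta subunit, at 901 ± 87.5 over all arrays (SD, n = 75). For complex IV it was Cox4i1 (852 ± 96.9), for complex I Ndufa4 (511 ± 75.1), for complex III Uqcr10 (499 ± 72.6), for complex II the membrane anchor Sdhc (238 ± 25.7) and for the assembly factors Ndufaf3 (223 ± 32.9). Ndufa4 carries a complex I name but is known as a subunit of complex IV. The classes followed the names, so Ndufa4 is counted with complex I throughout. The subunits that mitochondrial DNA encodes had 0 tested probes and were not analysed here.

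The promoters of these genes are shown because the transcription factor NRF1 was first described at genes of the respiratory chain. Sequences of 300 bases around the first listed start were held for 72 of the 88 genes (RefSeq, GRCm38.p6), and the 250 bases before the start were searched. The core letters GCGCATGCG on either strand stood before the start of 6 of the 72 genes (8.33%) and of 1.49% of the 27025 promoters in the table. The 6 windows follow, with the NRF1 core in capitals on either strand, and in Atp5l also an ETS core (CCGGAAG or its reverse complement), which 18.1% of the member promoters and 7.05% of all promoters held. In Atp5g2, Atp5k, Cox6a1 and Ndufaf4 the matches on the plus and minus strands overlap in 1 run of capitals.
Atp5g2, chr15:102671056-102671114, minus strand: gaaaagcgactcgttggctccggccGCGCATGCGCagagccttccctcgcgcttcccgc
Atp5k, chr5:108434416-108434474, minus strand: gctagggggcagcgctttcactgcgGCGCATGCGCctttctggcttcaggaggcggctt
Atp5l, chr9:44920948-44920992, minus strand: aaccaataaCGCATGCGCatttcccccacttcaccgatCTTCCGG
Cox6a1, chr5:115349087-115349145, minus strand: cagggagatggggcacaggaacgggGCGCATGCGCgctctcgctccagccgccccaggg
Ndufa8, chr2:36049339-36049372, minus strand: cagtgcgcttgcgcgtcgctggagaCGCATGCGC
Ndufaf4, chr4:24897945-24898003, plus strand: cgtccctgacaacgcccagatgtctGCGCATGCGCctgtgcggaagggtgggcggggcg
The YY1 core AANATGGCG, also searched on both strands, stood in 1 member promoter (1.39%) and in 1.12% of all promoters. A match to these letters is a description of the sequence and not a bound site.

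The lines were compared first, averaged over the 5 regions, with limma on log2 intensities of all 22083 tested probes and Benjamini-Hochberg adjustment over them. Between HAB and LAB mice 2 member probes were higher and 0 lower at an adjusted p under 0.05, where 2.67% of all tested probes were higher and 4.5% lower. The 2 called members were Ndufa13 and Cox6a2. At an unadjusted p under 0.05 the count was 13 of 109 members, against 3767 of all 22083 tested probes. The median difference of the 109 probes was -0.05, against -0.04 over all tested probes.

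**Figure D1:**
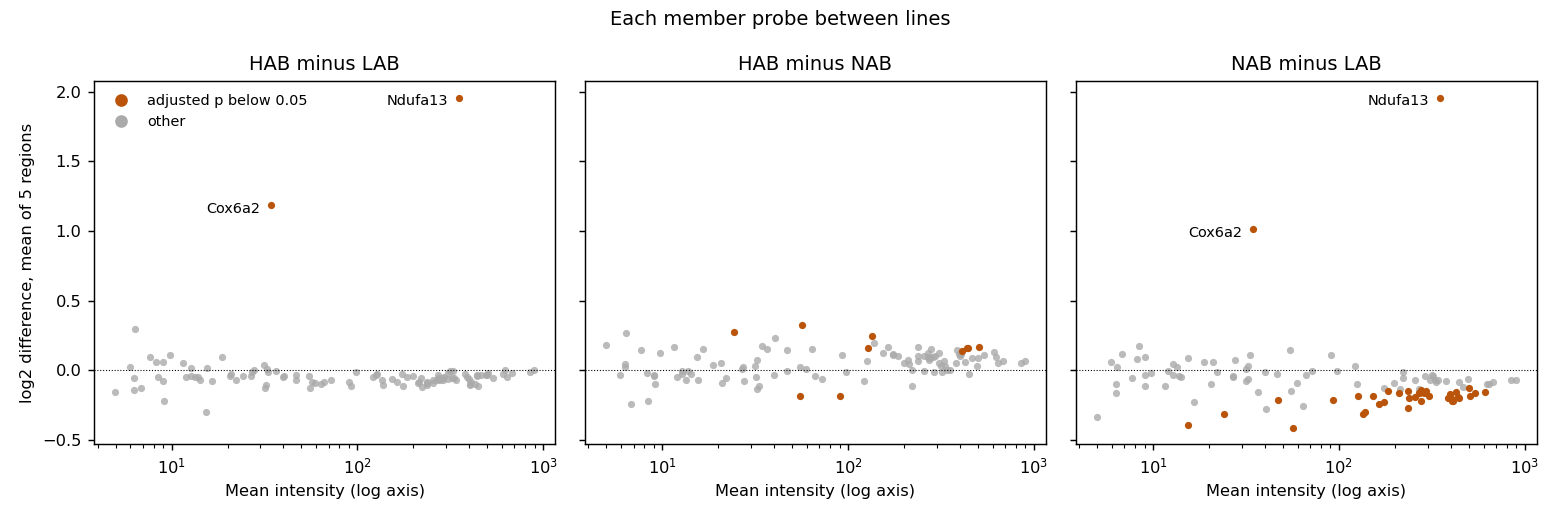
Log2 difference of each of the 109 tested member probes between lines, as the mean over the 5 regions, against its mean intensity (log axis); coloured points passed an adjusted p of 0.05 in limma. Ndufa13 and Cox6a2 stand far above 0 in HAB minus LAB and in NAB minus LAB, and the other coloured points of NAB minus LAB lie between -0.13 and -0.41.

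The larger of these differences was in Ndufa13, an accessory subunit of the membrane arm of complex I (also known as GRIM-19). In the Cg its probe 6220021 read 425 to 485 in HAB mice (median 467, n = 5), 433 to 550 in NAB mice (median 467, n = 6) and 90.1 to 128 in LAB mice (median 110, n = 6). In the CeA it ran from 407 to 583 in HAB mice (median 538), from 400 to 558 in NAB mice (median 452) and over 77.5, 78.2, 112, 146 and 174 in the 5 LAB arrays. In every region the HAB and NAB arrays lay above all LAB arrays. The PVN gave 613 to 728 in HAB mice (median 693), 677, 614, 772, 668 and 771 in NAB mice, and 201, 194, 204, 187 and 184 in LAB mice. The BLA gave 585, 585, 498, 533 and 516 in HAB mice, 440 to 605 in NAB mice (median 561), and 147, 128, 84.4, 113 and 105 in LAB mice. The DG gave 654, 576 and 609 in HAB mice, 627, 648 and 621 in NAB mice, and 259, 220 and 202 in LAB mice. HAB and NAB values overlapped everywhere, whereas LAB values never reached either. 

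Averaged over regions, Ndufa13 was 1.96 higher in HAB than in LAB mice on the log2 scale (SE 0.06, adjusted p = 1.42e-37), a 3.89-fold difference. NAB mice were also 1.96 higher than LAB mice (SE 0.06, adjusted p = 8.09e-38). Within regions limma gave a HAB minus LAB difference of 2.09 for the Cg (adjusted p = 5.17e-11), 2.20 for the CeA (3.48e-07), 1.82 for the PVN (3.83e-10), 2.26 for the BLA (4.88e-09) and 1.44 for the DG (0.00163). The call held in every refit that left out 1 array of a region. A second Ndufa13 probe, 101500132, averaged 9.17, lay above background in 52 of 75 arrays, and differed by -0.08 between HAB and LAB mice (adjusted p = 0.588) and by -0.04 between NAB and LAB mice (adjusted p = 0.774). Which of them follows the gene's transcript was not tested.

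**Figure D2:**
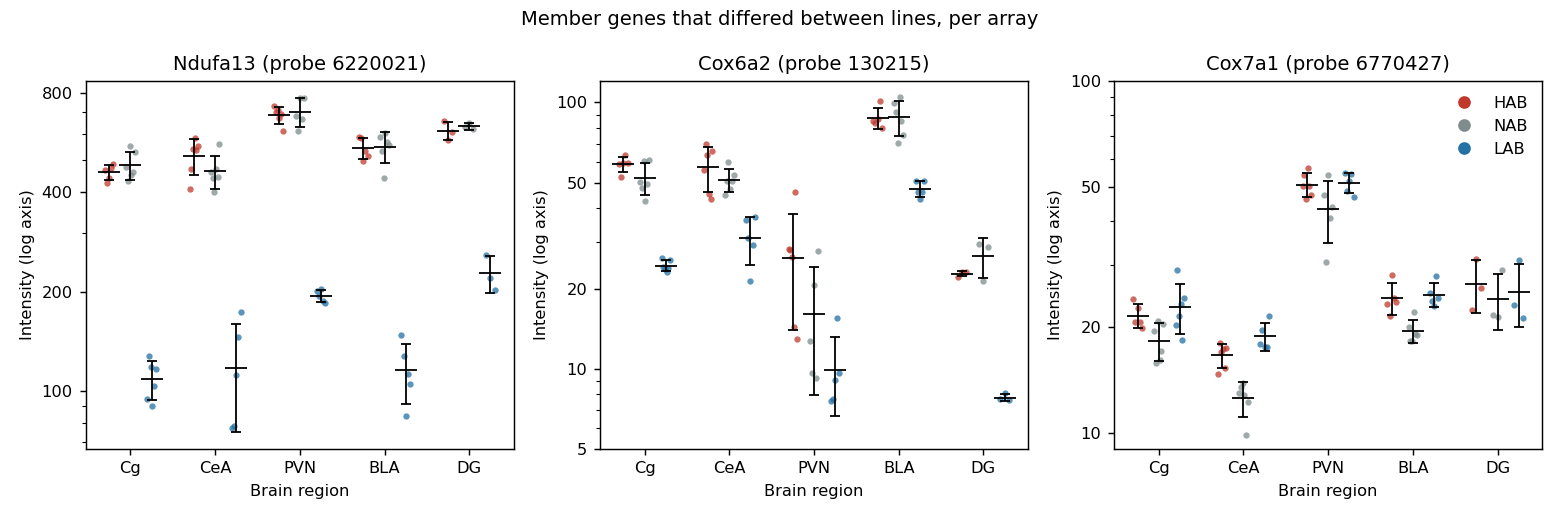
Intensity (log axis) of Ndufa13, Cox6a2 and Cox7a1 on each array, by region and line with HAB, NAB and LAB side by side; points are arrays, bars are the mean and SD. LAB arrays of Ndufa13 lie between 77.5 and 259, below every HAB and NAB array, and Cox7a1 of the PVN lies above that of the other regions except for 1 NAB array at 30.5.

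Cox6a2, the heart and skeletal muscle form of a complex IV subunit, in mouse brain also known from parvalbumin interneurons, was likewise lower in LAB mice. In the Cg it read 58.5, 52.6, 59.3, 63.7 and 59.1 in HAB mice, 42.7 to 61.0 in NAB mice (mean 52.0) and 23.1 to 26.0 in LAB mice (median 23.9). In the BLA it read 85.1, 84.1, 86.7, 101 and 80.4 in HAB mice, 70.4 to 105 in NAB mice (median 88.8), and 50.6, 46.1, 43.3, 46.2 and 50.8 in LAB mice. LAB arrays did not overlap the other lines in these regions. In the CeA the values were 43.5 to 69.8 in HAB mice (median 59.6), 44.9 to 59.6 in NAB mice (median 50.8), and 36.1, 30.9, 21.3, 29.3 and 37.0 in LAB mice. In the DG they were 22.1, 23.1 and 23.1 in HAB mice, 29.4, 21.3 and 28.6 in NAB mice, and 7.66, 8.07 and 7.64 in LAB mice, of which 2 of 3 lay above background. In the PVN the lines overlapped, with 12.9 to 46.3 in HAB mice (median 27.2), 12.7, 9.61, 20.7, 9.21 and 27.7 in NAB mice, and 7.53, 7.72, 9.09, 15.5 and 9.61 in LAB mice.

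Averaged over regions, Cox6a2 was 1.18 higher in HAB than in LAB mice (SE 0.10, adjusted p = 6.36e-16; 2.27-fold) and 1.01 higher in NAB than in LAB mice (SE 0.10, adjusted p = 3.33e-13; 2.02-fold). Within regions, HAB minus LAB was 1.26 for the Cg (adjusted p = 1.61e-08), 0.89 for the CeA (0.0014), 0.88 for the BLA (5.92e-05) and 1.55 for the DG (0.00172). In the PVN it was 1.32 with a wider spread (SE 0.34, adjusted p = 0.052), and without the LAB array of mouse 06, the highest of its group, it was 1.49 (adjusted p = 0.0281). The call was made in 5 of 16 refits that each left out 1 array, with a highest adjusted p of 0.152. With limma's array weights the adjusted p was 0.00695, and under the other settings it lay between 0.0534 and 0.0742, with a difference of 0.659 where 16 was added before log2. Pvalb, which marks the interneurons named above, did not pass the test in HAB against LAB mice (log2 difference -0.0011, adjusted p = 0.998) or in NAB against LAB mice (-0.24, adjusted p = 0.37). The widely expressed partner Cox6a1 passed the test in NAB against LAB mice with the opposite sign, as given below.

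The widest difference in number lay between NAB and LAB mice. Of the 109 member probes, 36 were lower and 2 higher in NAB mice, while 9% of all tested probes were lower and 2.87% higher. The median member difference was -0.10, against -0.03 over all tested probes and -0.05 over the 2291 tested probes outside the group with a mean intensity of 100 or more, of which 354 were lower and 36 higher. Among members that bright, 31 of 57 were lower and 1 higher, with a median of -0.15. After quantile normalisation 27 members were lower and 4 higher, and 29 of the 38 members called before kept their call and sign. The differences were small, with the lower members between -0.13 and -0.41 on the log2 scale.

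Ndufs3, a core subunit of the peripheral arm of complex I, was 0.41 lower in NAB than in LAB mice (probe 1690136, log2 -0.41, SE 0.10, adjusted p = 0.00256), and its other probe, 5340528, gave -0.18 (adjusted p = 0.0145). In the Cg Ndufs3 read 42.7 to 63.8 in NAB mice (median 53.8) and 62.4 to 72.5 in LAB mice (median 67.5). In the PVN it read 21.8 to 57.7 in NAB mice (median 46.2) and 46.8 to 91.0 in LAB mice (median 68.4), so the groups overlapped. Ndufaf7, a methyltransferase that serves complex I assembly, was lower with its probe 6110114 (-0.40, SE 0.11, adjusted p = 0.0125), while its probe 360369 gave -0.04. Ndufa8, an accessory subunit with twin cysteine motifs, was lower (-0.32, SE 0.06, adjusted p = 1.90e-04). In the CeA it read 89.7 to 119 in NAB and 121 to 151 in LAB mice, but it did not pass the test within that region. Ndufab1, the mitochondrial acyl carrier protein, was lower with probe 105670398 (-0.30, SE 0.09, adjusted p = 0.0116), but its brighter probes 100670026 and 106860088 each gave -0.04. Ndufc1, a small subunit of the membrane arm, was lower (-0.27, SE 0.06, adjusted p = 2.93e-04).

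By complex, 14 of 45 complex I probes were lower in NAB than in LAB mice, 3 of 11 assembly factor probes, 1 of 3 of complex II, 4 of 8 of complex III, 9 of 19 of complex IV and 5 of 23 of ATP synthase. The 2 higher probes were Ndufa13 and Cox6a2. Among the complex III members, the cytochrome c1 gene Cyc1 gave -0.23 (adjusted p = 0.00108). In complex IV, both probes of Cox6a1 were lower (-0.22 and -0.20; adjusted p = 6.57e-04 and 0.00279), as were both of Cox6b1 (-0.20 and -0.17; adjusted p = 0.00334 and 0.00193). In ATP synthase, Atp5g1, 1 of the genes for the membrane ring subunit c, was lower (-0.22, adjusted p = 4.76e-05). 

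Between HAB and NAB mice 8 member probes were higher and 2 lower, where 3.27% of all tested probes were higher and 2.97% lower. The median member difference was 0.06 and that of all tested probes 0.00. Ndufs3 (0.32, SE 0.10, adjusted p = 0.033), Cox7a1 (0.27, SE 0.05, adjusted p = 1.06e-04), Ndufa8 (0.24, SE 0.06, adjusted p = 0.00733), Ndufa4 (0.16, SE 0.05, adjusted p = 0.0315), Atp5g2 (0.16, SE 0.05, adjusted p = 0.0203) and Cox6b1 (0.16, SE 0.05, adjusted p = 0.0451, probe 6180438) were higher. Atp5l, subunit g of ATP synthase, and Atp5g1 were higher by 0.16 and 0.14. Ndufs6, a zinc-binding complex I subunit, was lower (-0.19, SE 0.06, adjusted p = 0.0467), as was a probe of Atp5a1, the alpha subunit of ATP synthase (-0.18, SE 0.05, adjusted p = 0.0207). The Ndufs3 value is that of probe 1690136. The other tested probes of Ndufs3, Cox6b1, Atp5l and Atp5a1 gave 0.12, 0.11, -0.02 and 0.03 and did not pass the test. The count of called members was the least settled of the lines. It was 5 after quantile normalisation, where Ndufs3, Cox7a1 and Ndufa8 stayed higher and Ndufs6 and Atp5a1 lower, while Ndufa4, Atp5g2, Cox6b1, Atp5l and Atp5g1 missed the threshold (adjusted p from 0.0771 to 0.151). It was 2 without mouse 05, 3 without mouse 11, 5 without mouse 12 or mouse 17, and 6 without mouse 08, 09 or 13.

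The comparisons of HAB with NAB and of NAB with LAB share the NAB arrays. Cox7a1, the heart and skeletal muscle form of another complex IV subunit, was 0.27 higher in HAB than in NAB mice and lower in NAB than in LAB mice (-0.32, SE 0.05, adjusted p = 6.12e-06), and HAB minus LAB gave -0.04 (adjusted p = 0.754). In the CeA Cox7a1 read 14.7 to 18.1 in HAB mice (median 17.2), 9.86 to 13.9 in NAB mice (median 12.9), and 17.9, 19.6, 17.5, 17.5 and 21.5 in LAB mice. NAB arrays there lay below all arrays of the other lines. In the BLA it read 23.3, 21.6, 28.2, 24.2 and 23.5 in HAB mice, 18.2 to 22.1 in NAB mice (median 19.1), and 25.0, 23.7, 22.9, 28.0 and 24.2 in LAB mice, where NAB arrays lay below the LAB arrays and overlapped the HAB arrays.

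Within regions few members passed the test. For HAB against LAB the Cg held 2 members (2.47% of the tested probes of that region were called), the CeA 2 (2.22%), the PVN 1 (2.09%), the BLA 2 (2.25%) and the DG 2 (0.761%). These were Ndufa13 in all 5 and Cox6a2 in all but the PVN. For HAB against NAB limma called 0 members of the Cg (2.13%), 1 of the CeA (2.06%), 0 of the PVN (1.71%), 0 of the BLA (3.05%) and 0 of the DG (0.659%). At an unadjusted p under 0.05 those counts were 5, 19, 10, 11 and 2. Of these, 18 of the 19 in the CeA were higher and 9 of the 11 in the BLA lower in HAB mice. The mean log2 intensity over all tested probes was also higher in HAB than in NAB arrays of the CeA (4.327 and 4.269). In the BLA it was also lower (4.365 and 4.457). Whether the members moved beyond all probes there was not tested. The share of all tested probes under that p was not counted within regions. In the joint fit it was 3699 of 22083, against 38 of 109 members. The 1 member called within a region was Cox7a1 in the CeA (0.41, SE 0.09, adjusted p = 0.0199). It missed the threshold after quantile normalisation (adjusted p = 0.0886) and without the HAB array of mouse 05 or of mouse 20.

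For NAB against LAB the Cg held 2 members (2.51%), the CeA 6 (2.63%), the PVN 1 (1.69%), the BLA 3 (3.39%) and the DG 2 (0.627%). Beside Ndufa13 and Cox6a2, the CeA held Cox7a1 (-0.59, SE 0.10, adjusted p = 0.00157), Ndufa12, Atp5g1 and Ndufaf5, all lower in NAB mice. At an unadjusted p under 0.05, 41 members were lower and 2 higher in NAB mice in the CeA. The PVN had 21 lower and 1 higher, but the BLA had 9 lower and 13 higher. The mean log2 intensity over all tested probes was also lower in NAB than in LAB arrays of the CeA (4.269 and 4.339) and PVN (4.34 and 4.455). In the BLA it was higher (4.457 and 4.394). Whether the members moved beyond all probes in these regions was not tested. Here too the share of all tested probes under that p was not counted within regions. In the joint fit it was 5385 of 22083, against 56 of 109 members. The BLA held Cox7a1 (-0.35, SE 0.09, adjusted p = 0.0322), a call that was lost in 8 of 16 refits that each left out 1 array (highest adjusted p 0.0774, without the LAB array of mouse 06). A test of whether a line difference depended on region, added after the values had been seen, called 0 members in HAB against LAB (0.258% of all tested probes were called), 0 in HAB against NAB (0.235%) and 0 in NAB against LAB (0.331%).

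Marker genes of other cells moved with some of these contrasts. In bulk tissue, fewer cells of a type and less RNA per cell cannot be told apart. Of 14 tested probes of endothelium and blood, 9 were higher and 1 lower in HAB than in LAB mice (median 0.445), and 9 were higher and 0 lower in HAB than in NAB mice (median 0.328). Their summed intensity ran from 1922 to 6462 over HAB arrays, from 1512 to 4178 over NAB arrays and from 1236 to 4417 over LAB arrays. In NAB against LAB mice, 0 of these 14 were higher and 1 lower, 0 of 20 neuron probes passed the test, 2 of 10 astrocyte probes were lower, 0 of 15 oligodendrocyte probes passed, and 4 of 6 microglia probes were lower. Their part in the member differences was not tested.

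Lists of other mitochondrial and metabolic genes were counted in NAB against LAB mice, where 9% of all tested probes were lower and 2.87% higher. Of 35 probes of cytochrome c and of assembly factors of complexes III to V, 11 were lower and 1 higher in NAB mice (median -0.11). Of 23 tricarboxylic acid cycle probes, 4 were lower and 1 higher, of 19 probes of import, porin and carrier genes 3 were lower and 0 higher, of 12 probes of transcriptional regulators such as Nrf1 and Tfam 1 was lower and 1 higher, and of 28 glycolysis probes 4 were lower and 2 higher. The difference between these lists and the members was not tested.

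The mean log2 intensity of the 109 member probes summarised each array. In the Cg it was 6.24 ± 0.08 in HAB, 6.24 ± 0.08 in NAB and 6.25 ± 0.08 in LAB mice (SD over arrays). In the CeA it was 6.25 ± 0.10 in HAB, 6.10 ± 0.11 in NAB and 6.28 ± 0.10 in LAB mice. In the PVN it was 6.63 ± 0.12 in HAB, 6.50 ± 0.20 in NAB and 6.67 ± 0.11 in LAB mice. In the BLA it was 6.48 ± 0.10 in HAB, 6.54 ± 0.14 in NAB and 6.50 ± 0.11 in LAB mice, and in the DG 6.74 ± 0.10 in HAB, 6.71 ± 0.14 in NAB and 6.74 ± 0.08 in LAB mice. NAB means were the lowest of the lines in the CeA, PVN and DG and the highest in the BLA, and the ranges of the lines overlapped in every region. The mean over all tested probes was also lowest in NAB arrays in the CeA (4.269, against 4.327 in HAB and 4.339 in LAB). The same held in the PVN (4.34, against 4.393 and 4.455). In the BLA it was likewise highest in NAB arrays (4.457, against 4.365 and 4.394). In the DG it was lowest in HAB arrays (4.44, against 4.475 in NAB and 4.511 in LAB).

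After quantile normalisation the line means of the members lay closer in every region but the DG. They were then 6.33 (HAB), 6.35 (NAB) and 6.35 (LAB) for the Cg, then in this order 6.32, 6.25 and 6.33 for the CeA, 6.56, 6.50 and 6.54 for the PVN, 6.44, 6.44 and 6.44 for the BLA, and 6.63, 6.57 and 6.57 for the DG. The order of the regions stayed the same, with the CeA and the Cg lowest and the DG highest. Averaged over regions, the mean level of the members differed by -0.02 in HAB minus LAB, 0.05 in HAB minus NAB and -0.07 in NAB minus LAB as deposited. After quantile normalisation these differences were 0.01, 0.03 and -0.03. The mean over all tested probes differed by -0.037, 0.001 and -0.038 as deposited, and by -0.0055, 0.001 and -0.007 after quantile normalisation. For the mean of the members, the SD of single arrays within a group, pooled over groups, was 0.113 as deposited and 0.061 after quantile normalisation. No test was run on this mean.

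**Figure D3:**
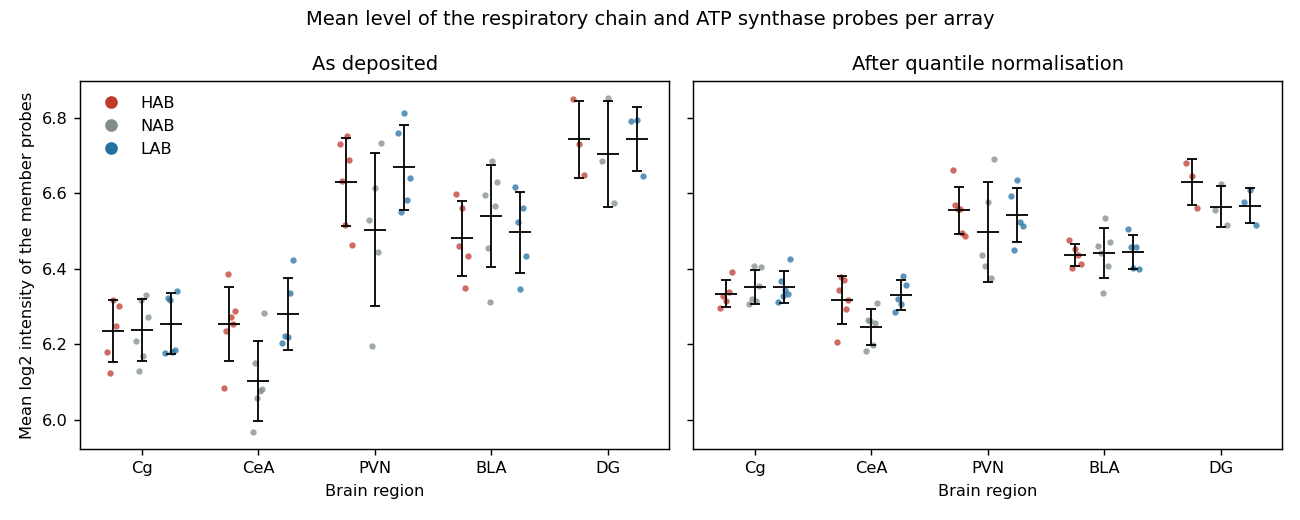
Mean log2 intensity of the 109 member probes on each array, by region and line with HAB, NAB and LAB side by side, as deposited and after quantile normalisation; points are arrays, bars are the mean and SD. The CeA and Cg lie lowest and the DG highest in both panels, and the NAB mean of the CeA (6.10 as deposited) lies below HAB (6.25) and LAB (6.28).

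Each region was then set against the mean of the other 4, in the same fit. As deposited, members were mostly lower in the Cg and CeA and mostly higher in the PVN, BLA and DG, but part of this belonged to all genes and to the scaling. Quantile normalisation moved the median of all tested probes in the DG to -0.05, against 0.06 as deposited, and in the Cg to -0.01, against -0.09. Counts over all members are therefore given on both scales, while those of other gene lists are as deposited. Among probes with a mean intensity of 100 or more, the members had medians of -0.216 (Cg), -0.308 (CeA), 0.23 (PVN), 0.13 (BLA) and 0.113 (DG) as deposited. Tested probes outside the group that were as bright had -0.165, -0.132, 0.1, 0.0761 and 0.136 in that order. The lists of cell type markers also moved between regions. Of 15 oligodendrocyte probes, the DG had 12 lower and 2 higher, the CeA 1 lower and 10 higher, and the BLA 0 lower and 9 higher. Of 20 neuron probes, 13 were lower and 4 higher in the PVN, and 0 lower and 13 higher in the BLA. Of 14 endothelium and blood probes, the CeA had 12 lower and the DG 9 lower, with 0 higher in both. Of 3 choroid plexus and ependyma probes, 2 were higher in the DG and 2 in the PVN, with 0 lower in both. Their part in the member differences was not tested.

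In the Cg 6 members were higher and 78 lower (22.5% of all tested probes were higher and 43.3% lower), with a median of -0.23 against -0.09 over all tested probes. After quantile normalisation 27 were higher and 47 lower, and 20 of the 84 called members turned their sign. The lowest were dim probes. Ndufb4 was lower (-1.09, SE 0.10, adjusted p = 4.39e-14) and above background in 13 of 17 Cg arrays, and it gave -1.005 after quantile normalisation. A dim Ndufv2 probe was above background in 3 of 17 Cg arrays, and Ndufc2 and an Atp5j probe in 0 of 17. The Cg levels of these probes are known only as not above background, and no size is given. The brighter Ndufv2 probe, 106370048, was above background in 17 of 17 Cg arrays. It was also lower in the Cg, with -0.58 as deposited and -0.43 after quantile normalisation (adjusted p = 4.4e-10 on the latter scale). The highest were Cox6a2 (0.50, SE 0.09, adjusted p = 3.37e-06), Cox8b, the muscle form of another complex IV subunit, which lay above background in 5 of 17 Cg arrays and 13 of 75 in all and is given no size, the dim Ndufa13 probe (0.32) and the brighter Atp5j probe (0.25).

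In the CeA 3 members were higher and 89 lower (19.3% of all tested probes were higher and 39.7% lower), with a median of -0.31 against -0.09 over all tested probes. After quantile normalisation 9 were higher and 65 lower, with a median of -0.16 against -0.01. Uqcrb, a small complex III subunit that helps bind ubiquinone, was lowest (-0.98, SE 0.11, adjusted p = 7.35e-12), with 11.5 to 35.1 in the CeA (median 21.2). It was followed by Ndufb9 (-0.97, SE 0.10, adjusted p = 3.10e-12), a dim Ndufa5 probe (-0.88, SE 0.10, adjusted p = 5.16e-12, above background in 9 of 17 CeA arrays) and Cox7a1 (-0.80, SE 0.05, adjusted p = 3.16e-22). The 3 higher members were Cox6a2 (0.60, SE 0.09, adjusted p = 8.34e-08), a probe of the assembly factor Ndufaf4 (0.28, SE 0.06, adjusted p = 1.01e-04) and Uqcrq (0.24, SE 0.05, adjusted p = 1.04e-05). Ndufv1, the NADH-binding subunit, was lower by little as deposited (-0.08, adjusted p = 0.0383) and higher after quantile normalisation (0.09, adjusted p = 0.0066).

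**Figure D4:**
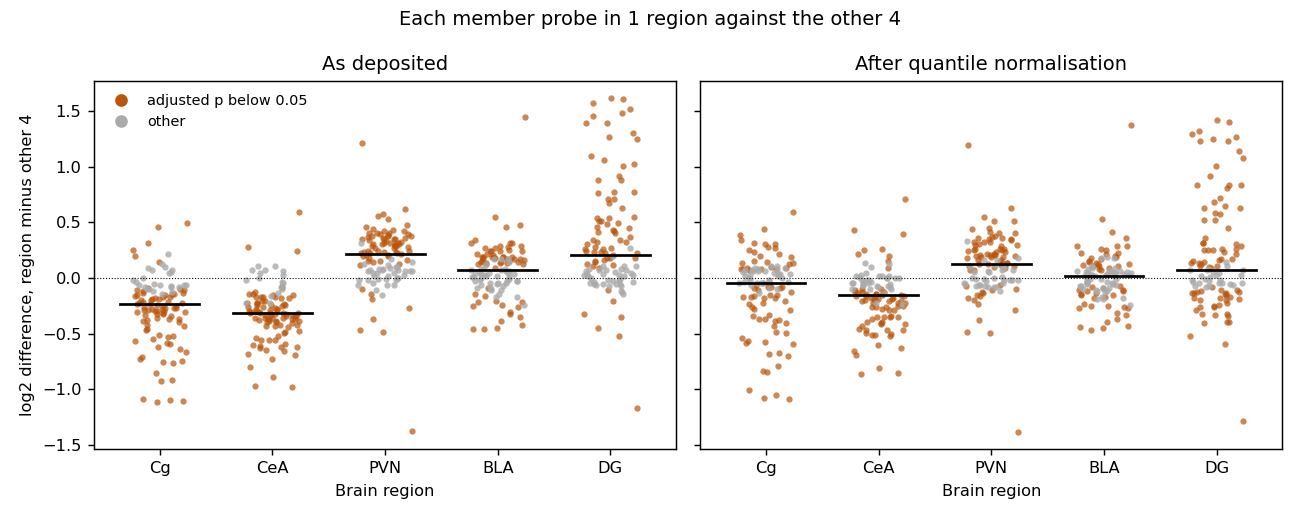
Log2 difference of each of the 109 tested member probes between 1 region and the mean of the other 4, as deposited and after quantile normalisation; coloured points passed an adjusted p of 0.05 in limma and horizontal bars are medians. The medians of the Cg and CeA move from -0.23 and -0.31 as deposited to -0.04 and -0.16, and a tail of DG probes above 1 remains in both panels.

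In the PVN 65 members were higher and 8 lower (32% of all tested probes were higher and 29.7% lower), with a median of 0.22 against -0.01 over all tested probes. After quantile normalisation 59 were higher and 16 lower, with a median of 0.13, and 67 of the 73 called members kept their call and sign. Of 45 probes with a complex I name, 32 were higher and 0 lower as deposited. After quantile normalisation 32 were higher and 2 lower, namely Ndufv1 and Ndufa4, the latter known as a complex IV subunit. Cox7a1 was the highest (1.22, SE 0.05, adjusted p = 8.76e-32), with 30.5 to 56.7 in the PVN (median 49.5). Its range was 15.8 to 29.0 for the Cg, 9.86 to 21.5 for the CeA, 18.2 to 28.2 for the BLA and 21.3 to 31.2 for the DG, so that only the lowest PVN array lay within another region's range. Cox6b2, the testis form, was above background in 14 of 16 PVN arrays but in 3 of 17 of the Cg, 0 of 17 of the CeA, 3 of 16 of the BLA and 5 of 9 of the DG, so it was tested mainly through the region where it was high and no size is given. Ndufa2, a small matrix-side complex I subunit (0.57, SE 0.04, adjusted p = 4.05e-20), read 287 to 472 in the PVN. Of 14 endothelium and blood probes 13 were also higher in the PVN.

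Cox6a2 was the lowest member of the PVN (-1.37, SE 0.09, adjusted p = 5.19e-21), followed by the Ndufaf4 probe (-0.46) and a probe of Atp5pb, the peripheral stalk subunit b (-0.37). Cox8b was also called lower there, but lay above background in 1 of 16 PVN arrays. Over the regions Cox6a2 read 43.3 to 105 for the BLA (median 82.2), 21.3 to 69.8 for the CeA (median 47.5), 23.1 to 63.7 for the Cg (median 49.6), 7.64 to 29.4 for the DG (median 22.1) and 7.53 to 46.3 for the PVN (median 13.6). The range of the Cg lay within that of the CeA. The range of the DG lay within that of the PVN, which reached higher. These ranges pool the 3 lines, which differed in Cox6a2. Pvalb averaged 280 ± 31.1 for the Cg, 56.3 ± 35.9 for the CeA, 81.4 ± 41.4 for the PVN, 257 ± 24.0 for the BLA and 163 ± 16.8 for the DG (SD), so the CeA combined a low Pvalb level with a middle level of Cox6a2.

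In the BLA 46 members were higher and 17 lower (29.8% of all tested probes were higher and 26.5% lower), with a median of 0.07 against 0.01 over all tested probes. After quantile normalisation 28 were higher and 27 lower, with a median of 0.02. Cox6a2 was the highest (1.45, SE 0.09, adjusted p = 1.82e-21). It was followed by a probe of Ndufa10 (0.54, SE 0.05, adjusted p = 1.95e-14), which read 35.5 to 50.9 in the BLA. Next came the ATP synthase delta subunit gene Atp5d (0.47, SE 0.05, adjusted p = 2.27e-13), with 305 to 407 in the BLA, and Ndufaf7 with its probe 6110114 (0.46). The other tested probes of Ndufa10 and Ndufaf7 each gave 0.14. The lowest were Ndufs4 (probe 101940044, -0.46), Ndufa6 (-0.45) and Uqcrq (-0.42), and Ndufb2, which was above background in 3 of 16 BLA arrays and is given no size. In the same region 23 of 28 glycolysis probes were higher and 1 lower (median 0.34).

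In the DG 64 members were higher and 7 lower (41.1% of all tested probes were higher and 29.7% lower), with a median of 0.21 against 0.06 over all tested probes. After quantile normalisation 50 were higher and 33 lower, with a median of 0.07 against -0.05. As deposited, 31 of 57 members with a mean intensity of 100 or more were higher and 1 lower (median 0.113). Of 2291 tested probes outside the group that were as bright, 1193 were higher and 557 lower (median 0.136). Of 52 dimmer members, 33 were higher and 6 lower (median 0.502, against 0.038 for dimmer probes outside the group). The members did not move alike. Ndufa5 with its probe 5720239 (1.62, SE 0.12, adjusted p = 1.56e-18), Sdhd, a membrane anchor of complex II (1.61, SE 0.14, adjusted p = 4.01e-16), Ndufb9 (1.57, SE 0.13, adjusted p = 1.53e-16) and Uqcrb (1.52, SE 0.14, adjusted p = 2.27e-15) were highest, and kept 1.42, 1.40, 1.32 and 1.27 after quantile normalisation. Sdhd read 30.2 to 54.5 in the DG (median 44.8), above its arrays of every other region, which ended at 24.1. Uqcrb read 61.9 to 102 in the DG (median 78.7) and at most 55.8 elsewhere. The lowest were Cox6a2 (-1.16, SE 0.12, adjusted p = 7.99e-14), both probes of Ndufaf7 (-0.52 and -0.35) and the dim Ndufa13 probe (-0.45).

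**Figure D5:**
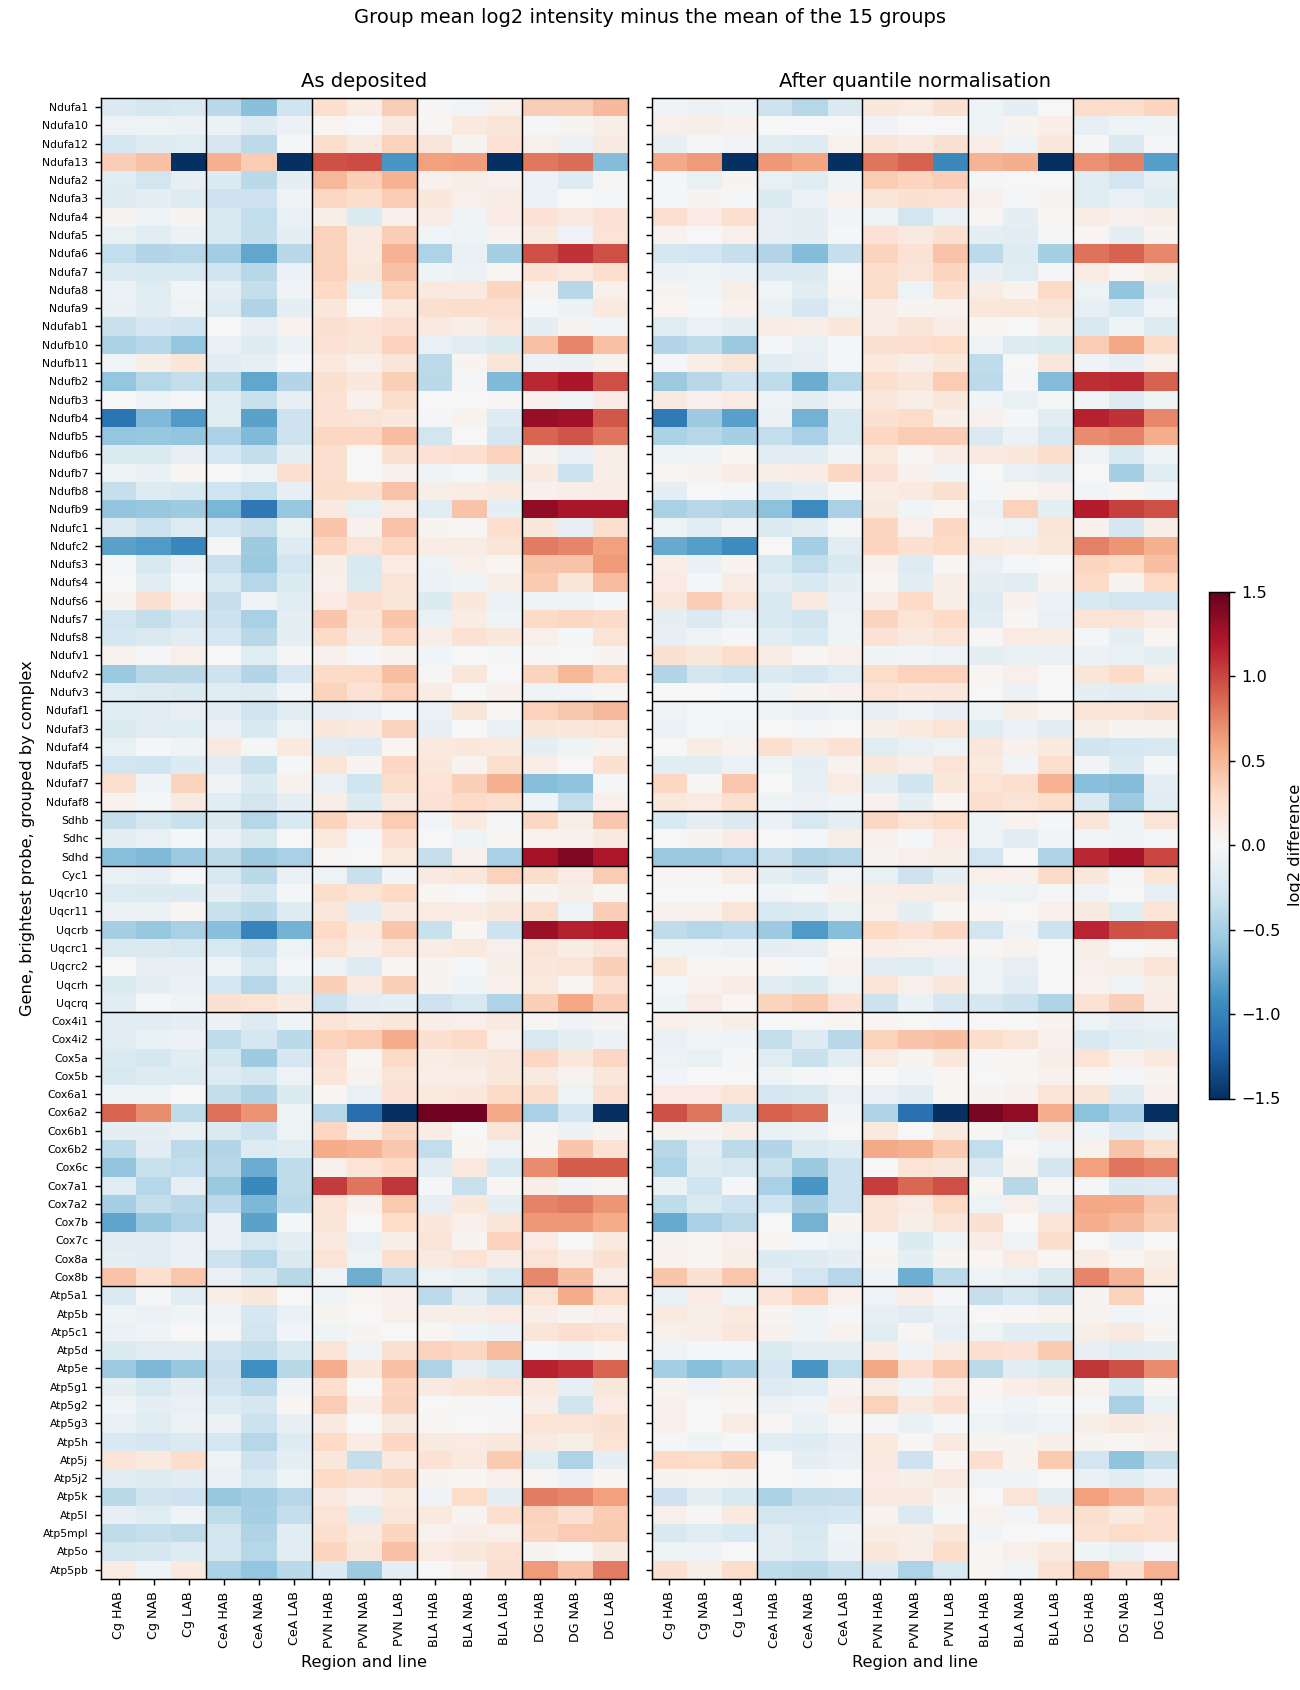
Group mean log2 intensity of the 81 tested genes (brightest probe of each) minus the mean of the 15 groups, as deposited and after quantile normalisation, with genes grouped from top to bottom as complex I, its assembly factors, complexes II, III and IV, and ATP synthase; groups run from Cg to DG with HAB, NAB and LAB side by side. Ndufa13 is low in all 5 LAB groups, Cox6a2 high in the BLA, Cox7a1 high in the PVN, and a subset that holds Sdhd, Uqcrb and Ndufb9 is high in the DG in both panels.

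For some of these genes the sign turned with the scaling. Cox4i1 averaged 762 ± 45.0 for the Cg, 786 ± 58.8 for the CeA, 957 ± 74.5 for the PVN, 911 ± 49.8 for the BLA and 853 ± 72.0 for the DG (SD). It was lower in the Cg as deposited (-0.20, adjusted p = 1.85e-07) but higher after quantile normalisation (0.09, adjusted p = 0.00885). Atp5b, with means between 826 and 968, was likewise lower in the Cg as deposited (-0.09, adjusted p = 0.012) and higher after quantile normalisation (0.16, adjusted p = 1.04e-07). Uqcr10 was higher in the PVN on both scales (0.32 and 0.13; adjusted p = 8.33e-12 and 4.59e-05). Ndufaf3 was also higher in the PVN on both (0.27 and 0.19; adjusted p = 1.65e-08 and 1.47e-08).

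The tissue forms of complex IV subunits are given beside their widely expressed partners, as differences of each region from the other 4. Cox4i2, the lung form, read 13.3 to 24.0 in the PVN (median 17.8) and 6.47 to 16.8 in the CeA (median 11.1), with differences of 0.53 in the PVN (adjusted p = 1.02e-09) and -0.43 in the CeA (adjusted p = 2.06e-07). Its partner Cox4i1 gave 0.21 and -0.14 in these regions as deposited, and 0.00 and 0.01 after quantile normalisation. Cox7a1 gave 1.22 in the PVN, where its partner Cox7a2 gave 0.27, while in the DG Cox7a2 gave 0.91 (adjusted p = 3.64e-11) and Cox7a1 0.03 (adjusted p = 0.665). After quantile normalisation those DG values were 0.65 for Cox7a2 and -0.18 for Cox7a1 (adjusted p = 0.0228). Cox6a2 gave 1.45 in the BLA and -1.37 in the PVN, where Cox6a1 gave 0.25 and 0.06 as deposited, and 0.13 and -0.09 after quantile normalisation. Cox8a, the partner of Cox8b, gave values from -0.39 to 0.23 over the regions as deposited. The difference between a form and its partner was not tested.

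Probes of the same gene did not always move together. Of the 81 tested genes, 22 had more than 1 tested probe, and in the DG the probes of 9 of these lay more than 0.5 apart on the log2 scale. The bright Ndufa5 probe (6550035) gave 0.12 in the DG, against 1.62 for the dim one. Atp5a1 gave 0.43 and 1.48, Ndufaf5 0.14 and 1.25, and the 3 probes of Atp5pb 0.08, 0.76 and 1.39. Several of these probes were near background outside the DG, such as the Atp5pb probe at 1.39, above background in 1 of 17 Cg arrays, and the dim Ndufa13 probe was above it in 2 of 9 DG arrays. Opposite calls within 1 gene occurred in Atp5j (Cg and DG), in Ndufa13 (Cg, BLA and DG) and in Ndufaf4 (Cg, CeA and BLA). In the DG, Atp5j gave -0.32 and 0.71. By contrast the 2 probes of Cox6a1 gave 0.16 and 0.18, and those of Cox6b1 -0.01 and 0.02. Between NAB and LAB mice only Ndufa13 had probes more than 0.5 apart. The sequences of the probes were not in the sources used here, so which transcript part or related gene each one reads was not tested.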

How the data were processed

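Transcripts were read with Illumina MouseWG-6 v1.1 arrays. Per the labels, the 75 arrays used fell into 15 groups of region and line, and 3 further labelled DG arrays held no values. The deposited values were linear intensities: the authors used BeadStudio for bead summaries and then QSpline over all arrays, in R packages based on beadarray. Their versions and any background step are not given in the sources used here. A table from before normalisation was not used, because its 156 per-sample columns match no label. Of 46643 probes, 32794 had 1 gene symbol in the platform annotation, 55 several and 13794 none. For 32722 probes the symbol was brought up to date by Entrez number (RefSeq, GRCm38.p6).

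An array's background was the 95th percentile of 1305 probes for odorant and pheromone receptors. Testing in a region required a probe to exceed it in at least as many arrays as the smallest line had. Log2 intensities were fitted with limma 3.58.1 in R 4.3.3 (lmFit, eBayes). A joint fit of the 15 group means kept the mouse as a random block (consensus correlation 0.0142), because several regions come from 1 mouse. The number in a label was read as the mouse. Deviations of arrays that share a number correlated at a mean of 0.0463 (114 pairs), against -0.0082 for different numbers of a line (628 pairs). Separate fits were run within each region. P-values were adjusted by Benjamini-Hochberg over all tested probes, with a threshold of 0.05. No source says that arrays of a line came from unrelated litters, so p-values measure the spread between these mice. On simulated data with the arrays of the joint fit, 94% of probes shifted by 0.5 on the log2 scale and 100% of those shifted by 1 were called. For the BLA alone 13% and 90% were called. The simulated arrays were independent of each other and were fitted without the mouse block. The joint shares therefore do not describe the fit with that block. The number of arrays limits the precision.

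Alternatives were quantile normalisation, median centring, 16 added before log2, no probe filter, array weights, 1 probe per gene, no mouse block, and leaving out each mouse or array. The members and lists were chosen with earlier results of these data known. Probes were named by rule: at most 8 called members per line contrast by size of difference, the 4 highest and 4 lowest called members of each region, members called within 2 or more regions or with the largest difference of a region, the brightest gene of each complex, the tissue forms of complex IV with their partners, and genes whose probes were called with opposite signs. Cyc1, Atp5g1, Atp5l, Ndufa12 and Ndufaf5 fall outside it and were named after their values were seen. Ndufa4l2 was not analysed here. Figures were drawn with matplotlib 3.10.9.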

Additional observations from a re-analysis of the deposited data

Results flagged for a closer look

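One result had a sample that stood apart from its group by Dixon's ratio, which was computed for the mean level of the members and for Ndufa13, Cox6a2 and Cox7a1 in each group of 4 or more arrays. In the PVN, the LAB array of mouse 06 read 15.46 for Cox6a2, above the other LAB arrays, which ran from 7.53 to 9.61. The ratio was 0.738. This was 1 of 48 groups tested, and about 1 in 20 would be so picked out by chance.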

How the results depend on the processing

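The members called between HAB and NAB mice, averaged over regions, numbered 10 as deposited, 5 after quantile normalisation and 3 with no probe filter. Summed over the regions, 1 member was called within regions between HAB and NAB mice, against 3 after quantile normalisation, 0 with no probe filter, 3 with array weights and 2 with 1 probe per gene; between NAB and LAB mice 14 were called, against 24 with 16 added before log2 and 26 with array weights. The mean level of the members, set against the other 4 regions, as deposited and after quantile normalisation, was -0.27 and -0.119 (Cg), -0.308 and -0.178 (CeA), 0.178 and 0.114 (PVN), 0.0594 and 0.000274 (BLA), and 0.34 and 0.183 (DG). Ndufv1 in the CeA turned to 0.08954 after quantile normalisation. The causes were not tested.

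Leaving out 1 mouse at a time gave 2 to 3 called members in HAB against LAB, 2 to 14 in HAB against NAB and 34 to 44 in NAB against LAB, and against the other regions 81 to 85 in the Cg, 91 to 94 in the CeA, 68 to 77 in the PVN, 55 to 63 in the BLA and 64 to 71 in the DG. Leaving out 1 array within a region gave sums of 9 to 10 in HAB against LAB, 0 to 3 in HAB against NAB and 11 to 19 in NAB against LAB. The HAB against NAB sum was 0 without the CeA HAB array of mouse 05 or 20, 2 without the Cg NAB array of mouse 04, the CeA NAB array of mouse 08, the BLA HAB array of mouse 01 or the BLA NAB array of mouse 12, and 3 without the BLA NAB array of mouse 04. The mean level then ran from -0.0334 to -0.00201 in HAB minus LAB, 0.0345 to 0.0691 in HAB minus NAB, -0.0831 to -0.0551 in NAB minus LAB, -0.285 to -0.26 in the Cg, -0.32 to -0.296 in the CeA, 0.153 to 0.203 in the PVN, 0.0466 to 0.0834 in the BLA and 0.314 to 0.366 in the DG.

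Without the mouse block the joint fit called 2 members in HAB against LAB, 10 between HAB and NAB and 41 in NAB against LAB, and for the regions 84 (Cg), 92 (CeA), 73 (PVN), 63 (BLA) and 71 (DG), so the block moved no count by over 1.5 times. Of the differences of named probes, counted once per contrast, 85 kept their direction and their side of the threshold after quantile normalisation. The call was lost in 5 and the sign turned in 1. Many of these probes were named for a large called difference, which favours a kept call. Of all members called as deposited, 53 of 84 in the Cg, 68 of 92 in the CeA, 67 of 73 in the PVN, 44 of 63 in the BLA and 56 of 71 in the DG kept call and sign. With 11 calls lost, the widest loss among the settings without omitted arrays came with no probe filter, where more probes were tested. Dim probes near the background, such as Cox8b and Cox6b2, limit what their differences show.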
